A study of Mus musculus with 69 samples.

Results

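Lung gene expression 1 day after 54 µg of the unmodified titanium dioxide nanoparticle NRCWE-001 was compared with that after vehicle alone. The arrays were chosen by their titles: 5 name this particle, dose and day and 5 name the vehicle of day 1, which is 10 of the 69 arrays of the series. All mice were female C57BL/6, were 5 to 7 weeks old on arrival and rested for 1 to 3 weeks before a single dose into the trachea. The vehicle was water with 2% serum, and the exposed mice received it too. Each array held lung RNA of 1 mouse, from a small piece of frozen lung, against a commercial mouse reference RNA. Groups used for context were 18 and 162 µg of NRCWE-001 and 54 µg of NRCWE-002, a particle with a positively charged surface, on day 1, and 54 µg of NRCWE-001 with its vehicle on day 28. Mice are numbered 1 to 5 within a group by deposition order, so the numbers pair no mice. A value is the log2 of lung over reference RNA, and a difference of 1 is a doubling. Dyes were not swapped, so a ratio is read against the other group and not on its own.

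Inhaled particles meet alveolar macrophages and epithelium, which release cytokines and chemokines that draw neutrophils and monocytes from the blood. The same signals switch on acute-phase genes in the lung itself. These encode secreted proteins such as the serum amyloid A proteins, which bind lipids, the orosomucoids, which carry small molecules, and lipocalin 2, which binds bacterial iron carriers. In whole lung, more cells of a type and more RNA per cell cannot be told apart.

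The arrays lay 4 to a slide, and slide was read from the scanner output. Slides 13, 15 and 17 each held 1 vehicle mouse and, for every dose of NRCWE-001 (18, 54 and 162 µg), 1 mouse, and carried exposed and vehicle mice 1, 2 and 3. Exposed mice 4 and 5 were on slides 8 and 10, which held no vehicle, and vehicle mice 4 and 5 were on slides 5 and 12. With slide as a block, these 4 mice were compared through the other groups on their slides. Correlations between arrays across genes ran from 0.972 to 0.989 among vehicle mice and from 0.961 to 0.988 among exposed mice. The share of spots well above background was 62.3% to 72.3% on vehicle and 66.5% to 79.3% on exposed arrays, and was highest in exposed mouse 4, whose slide held 3 further arrays at 84.3% to 87.6%. Sftpc, the surfactant protein of alveolar type 2 cells, was at 7.25 to 7.50 in vehicle and 6.82 to 7.58 in exposed mice, so the tissue had the defining marker of lung.

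Saa3, the serum amyloid A gene that lung cells express locally, divided the exposed mice sharply. It was at -3.19, -3.54, -3.22, -3.95 and -3.59 in vehicle mice 1 to 5. In exposed mice 1 to 5 it was at 2.11, 1.48, 3.75, -3.78 and -4.16. Exposed mice 1 to 3 stood far above every vehicle mouse, exposed mouse 4 lay within the vehicle range and exposed mouse 5 just below it. On the 3 shared slides, the exposed mouse was above the vehicle mouse by 5.30, 5.02 and 6.96. In the slide-blocked fit Saa3 rose by 4.38 ± 1.05 (SE), or 20.8-fold, with an adjusted p = 0.0372 by limma. Without the block the difference was 3.38 ± 1.16, or 10.4-fold (adjusted p = 0.686 by limma). The exposed mean lies between the high and the low mice, so neither fold describes a single mouse. Both fits use 1 spread per gene, shared by all 14 groups, though Saa3 had an SD of 0.31 among vehicle and 3.61 among exposed mice.

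Lcn2, which encodes lipocalin 2, divided the mice in the same way. It was at 1.20, 1.13, 1.06, 1.08 and 0.76 in vehicle mice and at 4.40, 4.17, 4.18, 0.87 and 1.03 in exposed mice. The 3 high mice were close together, and the other 2 were inside the vehicle range. Lcn2 rose by 2.34 ± 0.58 (adjusted p = 0.0430 by limma) in the slide-blocked fit, and without the block the difference was 1.89 ± 0.63 (adjusted p = 0.661).

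Saa1 and Saa2, which encode the serum amyloid A proteins of plasma, gave a like picture. Saa1 was at -0.88 to -0.67 in the 5 vehicle mice and at 2.35, 1.67, 3.43, -0.78 and -1.01 in exposed mice 1 to 5. Saa2 was at -0.13 to 0.10 in vehicle mice and at 2.53, 1.77, 2.86, 0.08 and -0.14 in exposed mice. In the slide-blocked fit Saa1 rose by 2.64 ± 0.62 and Saa2 by 1.91 ± 0.40 (adjusted p = 0.0353 and 0.0180 by limma). The 2 probes of Saa1 gave differences of 2.57 and 1.29 without the block. Saa1 and Saa2 are near-identical in sequence, so a probe for one may read the other.

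The orosomucoid genes Orm2 and Orm1 rose with slide as a block by 1.81 ± 0.40 and 1.49 ± 0.34 (adjusted p = 0.0272 and 0.0310 by limma). Orm2 was at -0.08 to 0.30 in vehicle mice and at 1.85, 2.33, 2.89, 0.08 and 0.49 in exposed mice. Exposed mouse 4 lay within the vehicle range and exposed mouse 5 slightly above it. Orm2 was not well above background on any of the 5 vehicle arrays and was so on 4 exposed arrays. In the sample channel the mean of Orm2 over all exposed mice was 2.5-fold above the vehicle mean. Vehicle signals were set no lower than the lowest signal that counts as detected. The exposed array without detection entered at its measured signal, so the fold describes the group mean and is no strict lower limit. Orm1 was at -0.20 to -0.09 in vehicle mice and at 1.43, 1.52, 2.27, -0.08 and -0.23 in exposed mice. Orm1 and Orm2 are close copies, and reading of one by the probe of the other was not tested.

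The promoters of these acute-phase genes are shown because the genes moved together. Orm1 had no entry in the promoter table. Each line holds the 250 bases before the annotated start, from RefSeq (build GRCm38.p6), 5′ to 3′ on the strand of the gene: Saa3 at chr7:46715677-46715926 (minus strand), Lcn2 at chr2:32387740-32387989 (minus), Saa1 at chr7:46742981-46743230 (minus), Saa2 at chr7:46751583-46751832 (plus) and Orm2 at chr4:63362199-63362448 (plus). Capitals mark a match to TTNNGCAA on either strand, letters of the kind that C/EBP factors bind.
Saa3: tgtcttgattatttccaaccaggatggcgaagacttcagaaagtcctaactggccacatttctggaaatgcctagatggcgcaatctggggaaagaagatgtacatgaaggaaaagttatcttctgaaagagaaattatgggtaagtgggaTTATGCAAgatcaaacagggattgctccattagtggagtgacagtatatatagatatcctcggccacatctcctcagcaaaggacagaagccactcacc
Lcn2: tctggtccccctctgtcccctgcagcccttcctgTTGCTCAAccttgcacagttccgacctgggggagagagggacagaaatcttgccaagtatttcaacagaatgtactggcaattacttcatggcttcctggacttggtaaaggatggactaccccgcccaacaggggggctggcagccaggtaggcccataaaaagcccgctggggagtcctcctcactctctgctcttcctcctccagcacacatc
Saa1: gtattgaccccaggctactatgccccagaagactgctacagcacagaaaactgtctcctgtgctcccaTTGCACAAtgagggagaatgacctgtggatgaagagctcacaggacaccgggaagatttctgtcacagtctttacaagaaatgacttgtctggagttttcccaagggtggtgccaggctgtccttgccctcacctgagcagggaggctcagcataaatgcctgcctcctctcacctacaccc
Saa2: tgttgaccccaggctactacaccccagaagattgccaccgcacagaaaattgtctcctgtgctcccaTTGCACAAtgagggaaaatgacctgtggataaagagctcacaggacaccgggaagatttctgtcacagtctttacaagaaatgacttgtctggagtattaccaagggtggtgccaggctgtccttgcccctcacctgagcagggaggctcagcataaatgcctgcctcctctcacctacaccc
Orm2: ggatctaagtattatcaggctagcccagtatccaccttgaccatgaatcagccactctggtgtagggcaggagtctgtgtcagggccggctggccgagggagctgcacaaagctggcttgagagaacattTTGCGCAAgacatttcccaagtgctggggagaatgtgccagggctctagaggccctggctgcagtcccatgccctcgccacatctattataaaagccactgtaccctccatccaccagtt
Each window held 1 match, at 99 to 92 bases before the start in Saa3, 216 to 209 in Lcn2, 182 to 175 in Saa1, 183 to 176 in Saa2 and 120 to 113 in Orm2. The matched letters were TTGCACAA in both Saa1 and Saa2, close copies whose windows are not independent. Of 32841 promoter windows of this length, 9.57% held a match. The letters GGG and TTCC with 3 bases between them, of NF-kB type and present in 4.65% of windows, and TTCNNNGAA, of STAT type and present in 7.02%, had no match on either strand of these windows. A match describes letters and is not a measured binding site.

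**Figure D1:**
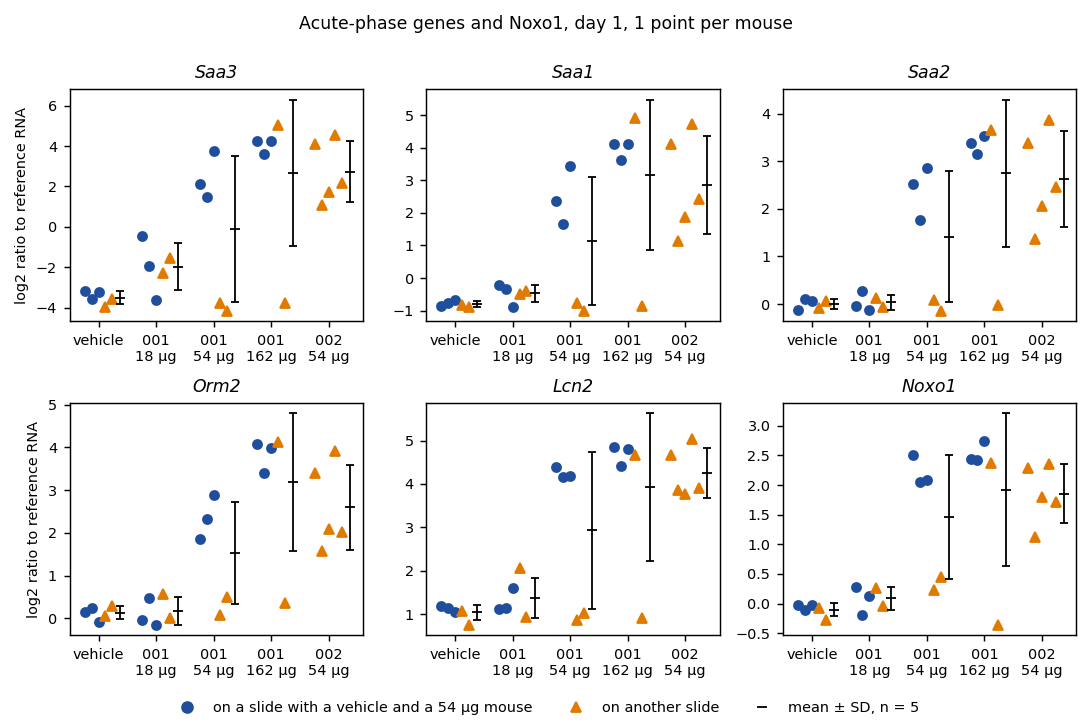
Log2 ratio to reference RNA of 6 genes in each of the 5 mice of 5 day 1 groups, with the mean ± SD of each group (001 is NRCWE-001 and 002 is NRCWE-002). Circles are mice on the 3 slides that held both a vehicle and a 54 µg mouse, and triangles are mice on other slides. At 54 µg of NRCWE-001 the 3 circles are high, with Saa3 at 1.48 to 3.75, and the 2 triangles are low, at -3.78 and -4.16.

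Over all 17628 genes, limma without a block called 0 genes (0%) at an adjusted p below 0.05, while 879 (4.99%) had an unadjusted p below 0.05. Blocking by slide gave 123 called genes (0.698%), 109 higher (0.618%) and 14 lower (0.0794%) in exposed mice, and 2347 (13.3%) had an unadjusted p below 0.05. Most changes were small, with a median size of 0.40 among the 123 genes. Only 9 called genes (0.0511%) changed more than 2-fold: Saa3, Saa1, Lcn2, Saa2, Noxo1, Orm2, Orm1, Vnn3 and Mefv. All 123 had the direction of the fit in 3 of 3 within-slide pairs. The fit that selected them rests in part on these pairs, so this is a description and no separate check. The median SE was 0.12 without the block and 0.08 with it.

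**Figure D2:**
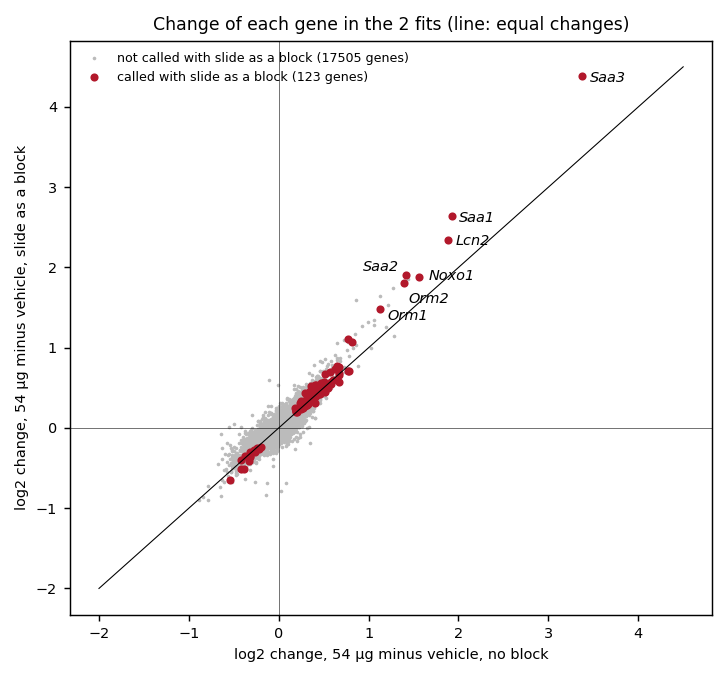
Log2 difference of 17628 genes between 54 µg of NRCWE-001 and vehicle on day 1, without a block (x axis) and with slide as a block (y axis), with the 123 genes called under the block marked. Saa3, Saa1 and Lcn2 have larger differences with the block, and across genes the 2 sets correlate at 0.904.

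The counts depended on which arrays were fitted. Without a block, limma called 123 genes from the 10 arrays of the comparison alone, 84 from the 20 arrays of NRCWE-001 and vehicle on day 1, and 61 from the 35 arrays of day 1. Of these, 39, 41 and 43 were among the 123 genes of the slide-block fit. With the block, leaving out exposed mouse 1, 2, 3, 4 or 5 gave 40, 22, 21, 246 and 3 genes, and leaving out vehicle mouse 1, 2, 3, 4 or 5 gave 25, 12, 28, 112 and 36. The 3 genes called without exposed mouse 5 were Isyna1, Nadk and Rpl18. Without exposed mouse 4, 118 of the 123 genes were still called.

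**Figure D3:**
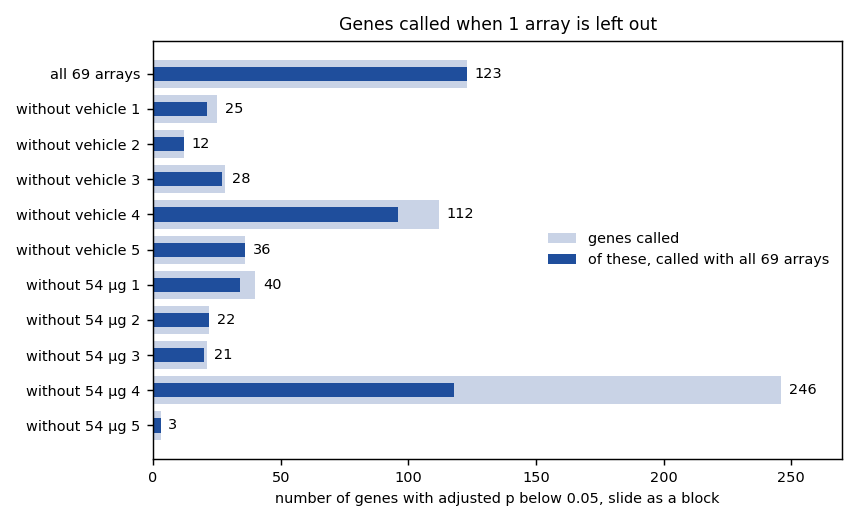
Number of genes called by limma with slide as a block, with all 69 arrays and with each of the 10 arrays of the comparison left out, and how many of them were among the 123 genes called with all arrays. The count runs from 3 without exposed mouse 5 to 246 without exposed mouse 4.

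The acute-phase calls were among those that moved. Saa3, Saa1 and Lcn2 each lost the call in 8 of 10 fits that left out 1 array, and Saa2 and Orm2 in 6. In those 10 fits the difference in Saa3 ran from 3.54 to 5.03 and that in Lcn2 from 2.11 to 2.70.

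Noxo1, which encodes the organiser subunit of the NADPH oxidase NOX1, was also more than 2-fold higher. It was at -0.28 to -0.02 in vehicle mice and at 2.51, 2.05, 2.08, 0.24 and 0.45 in exposed mice. All 5 exposed mice lay above all vehicle mice, but exposed mice 4 and 5 by far less. It rose by 1.89 ± 0.45 in the slide-blocked fit (adjusted p = 0.0364 by limma). Mefv, which encodes the inflammasome protein pyrin, was at 0.59 to 1.21 in vehicle mice and at 2.01, 2.03, 2.09, 0.74 and 1.13 in exposed mice, and rose by 1.08 ± 0.23 (adjusted p = 0.0180). Vnn3, a gene of the pantetheinase family, was at 0.98 to 2.13 in vehicle mice and at 3.07, 3.15, 3.14, 1.30 and 1.82 in exposed mice, and rose by 1.11 ± 0.27 (adjusted p = 0.0405). With 1 array left out, the call was lost in 8 of 10 fits for Noxo1 and in 7 each for Mefv and Vnn3.

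All 25 genes of the acute-phase list were tested. The slide-blocked fit called 7 and all rose: Saa1, Saa2, Saa3, Orm1, Orm2, Lcn2 and Lbp, which encodes lipopolysaccharide-binding protein (change 0.41, adjusted p = 0.0430 by limma). Of the 25, 16 were higher and 0 lower at an unadjusted p below 0.05, against 8.43% and 4.88% of all genes. The median difference of the list was 0.62 with the block and 0.42 without it, against 0.0083 and 0.018 over all genes. In 11 of the 25, exposed mice 1 to 3 alone were above all vehicle mice, against 2.24% of all genes. In 0 of the 25 did all 5 exposed mice separate from the vehicle mice, against 3.4% of all genes. The mean deviation of the list from the vehicle mean was 1.11, 0.97, 1.43, -0.07 and 0.04 in exposed mice 1 to 5 and -0.05 to 0.07 in vehicle mice.

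Some acute-phase genes were not called. Hpx, which encodes the haem carrier hemopexin, was at -0.31 to 0.30 in vehicle mice and at 0.77, 1.22, 1.36, 0.16 and 0.35 in exposed mice (difference 1.03 ± 0.29, adjusted p = 0.0736 by limma with slide as a block). Timp1, an inhibitor of matrix metalloproteinases, was at -2.78 to -2.42 in vehicle mice and at -0.45, -0.98, 0.45, -2.73 and -3.03 in exposed mice (difference 1.74 ± 0.48, adjusted p = 0.0715). Both had exposed mice 1 to 3 above the vehicle mice. Hp, which encodes the haemoglobin carrier haptoglobin, was at 5.94 to 6.36 in vehicle and 5.97 to 6.56 in exposed mice, and the groups overlapped (difference 0.19 ± 0.13, adjusted p = 0.556).

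Among the cytokine and chemokine genes described here, none passed the test with slide as a block. Il1b, which encodes the secreted interleukin 1 beta of myeloid cells, was at 1.20 to 1.82 in vehicle mice and at 3.12, 2.94, 2.95, 1.35 and 1.95 in exposed mice. Its difference was 1.34 ± 0.35 (adjusted p = 0.0522 by limma), and 6 of 18 other settings called it. Cxcl5, a neutrophil-attracting chemokine of epithelium, was at -3.70 to -3.18 in vehicle mice and at 0.58, -0.57, -0.11, -3.03 and -3.66 in exposed mice, with a difference of 2.61 ± 0.77 (adjusted p = 0.0902). It was not well above background on any vehicle array and was so on 3 exposed arrays. In the sample channel the mean of Cxcl5 over all exposed mice was 3.64-fold above the vehicle mean. Vehicle signals were set no lower than the lowest that counts as detected. The exposed arrays without detection entered at their measured signal, so the fold describes the group mean and is no strict lower limit. Cxcl1, another neutrophil-attracting chemokine, was at -4.30 to -3.85 in vehicle mice and at -2.67, -3.45, -3.39, -3.13 and -4.53 in exposed mice, so that exposed mouse 4 was high as well (difference 0.70 ± 0.34, adjusted p = 0.370).

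By list, 0 of 7 neutrophil CXC chemokine and CSF3 genes were called by limma and 4 were higher at an unadjusted p below 0.05, with a median difference of 0.49. Of all genes, 0.618% were called higher and 8.43% were higher at an unadjusted p below 0.05. For 15 CC chemokines these were 0 and 5, with a median of 0.74. Ccl2 and Ccl7, which attract monocytes, were higher in the exposed mouse of the 3 shared slides by 1.58, 0.89 and 1.64 and by 1.60, 1.06 and 2.07. For 19 genes of IL-1, IL-6 and NF-kB signalling, 0 were called and 10 were higher, with a median of 0.37. Nfkbiz, an NF-kB cofactor, was at -1.65 to -1.23 in vehicle mice and at -0.62, -0.52, -0.62, -1.20 and -0.99 in exposed mice. All 5 exposed mice were above all vehicle mice (difference 0.77 ± 0.20, adjusted p = 0.0547). Of 16 interferon-induced genes tested, 0 were called by limma and 0 were higher at an unadjusted p below 0.05, with a median of 0.31.

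On each of the 3 shared slides, the same 20 genes (0.113%) were more than 2-fold higher in the exposed than in the vehicle mouse, and Cst8, a cystatin-family gene, was the 1 gene more than 2-fold lower (0.00567%). Beside genes already named, the 20 were Ch25h, Acod1, Slc26a4, Pigr, Cxcl10, Il4i1 and Ly6f. Ch25h, which makes 25-hydroxycholesterol, was higher by 2.11, 1.66 and 1.94. Acod1, which makes itaconate in activated macrophages, was higher by 1.73, 1.12 and 2.12. Slc26a4, which encodes the anion exchanger pendrin, was higher by 1.73, 2.18 and 2.46. Over all 10 mice none of these 3 passed the test (adjusted p = 0.0715, 0.353 and 0.340 by limma with slide as a block). Slc26a4 was at 3.86 in vehicle mouse 1 and at 1.71 to 2.43 in the other vehicle mice.

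Of 18 neutrophil markers tested, 2 rose: Csf3r, the receptor for granulocyte colony-stimulating factor, by 0.70 ± 0.17 (adjusted p = 0.0372 by limma with slide as a block), and Trem1, an amplifying receptor of myeloid cells, by 0.40 ± 0.10 (adjusted p = 0.0413). Of all genes 0.618% were called higher. With 1 array left out, the call of Csf3r was lost in 8 of 10 fits and that of Trem1 in 9. At an unadjusted p below 0.05, 8 of the 18 were higher and 0 lower, against 8.43% and 4.88% of all genes. Csf3r was at 1.02 to 1.28 in vehicle mice and at 2.03, 1.99, 2.40, 0.75 and 1.50 in exposed mice. The abundant granulocyte genes S100a8 and S100a9 were not called, with differences of 0.54 ± 0.26 and 0.02 ± 0.17. Over the list the mean deviation was 0.71, 0.25, 0.42, -0.19 and 0.08 in exposed mice 1 to 5 and -0.17 to 0.18 in vehicle mice. Over 21 macrophage and monocyte markers it was 0.44, 0.16, 0.47, -0.18 and -0.08 in exposed and -0.10 to 0.07 in vehicle mice, with 0 called and 4 higher at an unadjusted p below 0.05. Both lists were lowest in exposed mouse 4, and the part of cell numbers in the gene differences was not tested.

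Markers of other tissue differed between single mice. The cardiac muscle list deviated from the vehicle mean by -0.71, -0.58, 0.85, -0.49 and 1.32 in exposed mice 1 to 5 and by -0.41, -0.61, -0.47, -0.60 and 2.09 in vehicle mice 1 to 5, and it was highest in vehicle mouse 5. The airway epithelial list was at 1.26 in vehicle mouse 5 and 1.31 in exposed mouse 5. Limma with slide as a block called 0 genes of the cardiac muscle, airway epithelial, alveolar epithelial, endothelial, lymphocyte and adipocyte lists. In these lists 0 to 2 genes had an unadjusted p below 0.05 in a given direction. The 2 were lower, among 10 alveolar epithelial markers. Of all genes, 8.43% were higher and 4.88% lower at that p. The cardiac list was high in exposed mice 3 and 5, of which mouse 3 was high in acute-phase genes and mouse 5 was not.

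**Figure D4:**
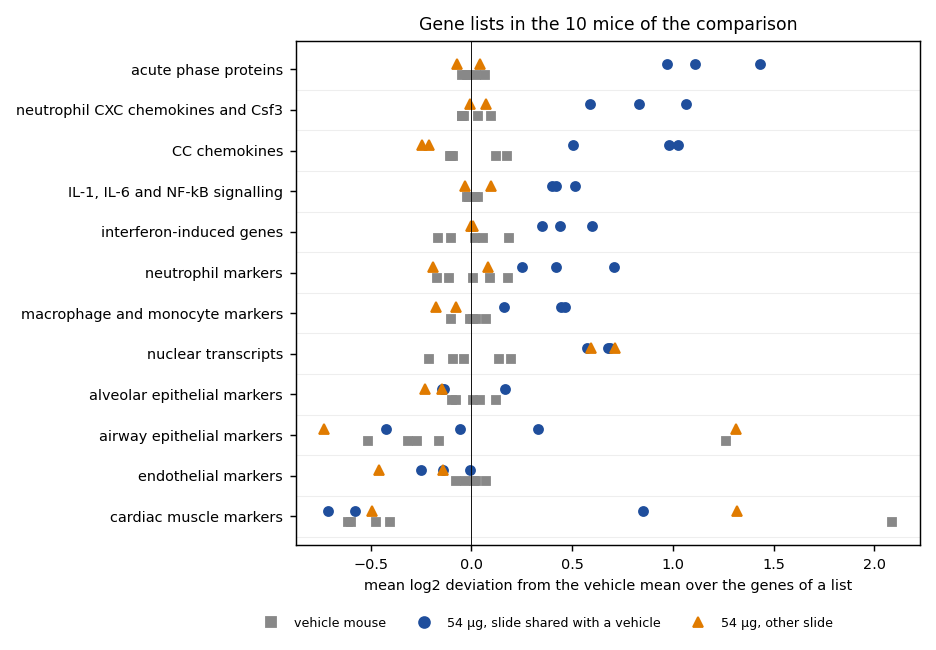
Mean log2 deviation from the vehicle mean over the genes of each list, for each of the 5 vehicle mice and the 5 mice at 54 µg of NRCWE-001, with exposed mice 4 and 5 on slides without a vehicle marked apart. The acute-phase list is at 0.97 to 1.43 in exposed mice 1 to 3 and at -0.07 and 0.04 in exposed mice 4 and 5.

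The spread between mice was tested as the difference in absolute deviation from the group mean. Limma called 5 genes (0.0284%), all with more spread among exposed mice, and 695 (3.94%) had an unadjusted p below 0.05. Saa3 and Lcn2 were among the 5, with differences in deviation of 3.18 ± 0.62 and 1.64 ± 0.28 (adjusted p = 0.0117 and 0.00171). The SD of Saa3 was 3.61 among exposed and 0.31 among vehicle mice (n = 5 each). The other 3, Trpc1, Slit1 and Oprd1, rested on exposed mouse 4, at 1.88, -3.10 and 1.64, on spots that the scanner software had marked as outliers. Without exposed mouse 4 the count was 0, with 562 at an unadjusted p below 0.05, and without exposed mouse 5 it was 3 and included neither Saa3 nor Lcn2. It was 16 without exposed mouse 1 and 13 without exposed mouse 2. The 35 arrays of day 1 gave 0, with 1106 at an unadjusted p below 0.05. The 10 arrays of the comparison alone gave 5, with Lcn2 but not Saa3 among them.

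The slides of exposed mice 4 and 5 also held mice with high acute-phase genes. On slide 8, a mouse given 54 µg of NRCWE-002 had Saa3 at 1.10 and Lcn2 at 3.86, beside -3.78 and 0.87 in exposed mouse 4. On slide 10, a mouse given 54 µg of NRCWE-002 had Saa3 at 1.72 and Lcn2 at 3.78, beside -4.16 and 1.03 in exposed mouse 5. A mouse given 162 µg of NRCWE-001 on slide 10 was low as well, with Saa3 at -3.74 and Lcn2 at 0.91. The other 4 mice at 162 µg had Saa3 at 3.61 to 5.02. On slides 8 and 10 the high arrays were of NRCWE-002, and all mice given 54 or 162 µg of NRCWE-001 were low. A mouse given 18 µg of NRCWE-001 on slide 8 had Saa3 at -1.53, above all vehicle mice. Its Lcn2, at 0.93, was inside the vehicle range. For NRCWE-001, slide and differences between mice cannot be told apart here, and the cause of the low values was not tested.

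Other genes were higher in all 5 exposed mice, mice 4 and 5 included. Of the 109 called higher genes, 67 had all 5 exposed mice above all vehicle mice, as did 2.31% of all genes. In 10, exposed mice 1 to 3 alone were above all vehicle mice, and 32 had another pattern. The 67 genes had median deviations from the vehicle mean of 0.39, 0.42, 0.31, 0.31 and 0.44 in exposed mice 1 to 5, and the 10 genes had 1.29, 1.34, 1.36, -0.18 and 0.02. These patterns were read from the arrays that the calls rest on and are a description.

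At the other doses, in comparisons that share the vehicle mice, the values of these genes were as follows. In slide-blocked fits the 67 genes had median differences from vehicle of 0.24 at 18 µg, 0.39 at 54 µg and 0.08 at 162 µg of NRCWE-001, and 0.10 at 54 µg of NRCWE-002. The 10 genes had 0.20, 1.09, 1.39 and 1.13. At 162 µg, 14 of the 67 and 8 of the 10 were called, and 4.11% of all genes were. Both sets were chosen by their values at 54 µg of NRCWE-001, which biases their medians there upward. The doses and particles therefore cannot be ranked by these medians.

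Neat1, the long non-coding RNA around which nuclear paraspeckles form, was higher in all 5 exposed mice. It was at 0.37, 0.90, 0.37, 0.35 and 0.11 in vehicle mice and at 1.54, 1.90, 1.64, 1.59 and 1.86 in exposed mice. The groups did not overlap, and the exposed mice had an SD of 0.17 (n = 5). The difference was 1.15 ± 0.31 with slide as a block (adjusted p = 0.0657 by limma) and 1.29 ± 0.34 without it (adjusted p = 0.323), and neither passed the test. At 18 µg of NRCWE-001 Neat1 was at 1.28 to 1.75, above all vehicle mice and overlapping the range at 54 µg, and at 162 µg it was at 0.15 to 0.61. Snhg20, a small nucleolar RNA host gene, was at -1.75 to -1.23 in vehicle mice and at -0.39, -0.44, -0.75, -0.60 and -0.42 in exposed mice (difference 0.99 ± 0.27, adjusted p = 0.0636). Rsrp1, which encodes an arginine- and serine-rich protein, was at -0.33 to 0.34 in vehicle mice and at 0.76 to 0.98 in exposed mice (difference 0.78 ± 0.25, adjusted p = 0.132).

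Of 5 nuclear transcripts tested, limma with slide as a block called 0, 4 were higher at an unadjusted p below 0.05 and 3 separated the groups. Of all genes, 8.43% were higher at that p and 3.4% separated the groups. The list includes the protein-coding Rsrp1 and was chosen with earlier results of these data known, so its counts are a description and no test. Malat1, an abundant nuclear RNA and genomic neighbour of Neat1, was at 1.06 to 2.14 in vehicle and 1.07 to 1.62 in exposed mice, with a difference of -0.13 ± 0.15. The median of the list was 0.78 at 54 µg, 0.56 at 18 µg and -0.27 at 162 µg of NRCWE-001, and -0.13 at 54 µg of NRCWE-002.

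Klhdc8b, a kelch-domain gene of cell division, was called and had all 5 mice higher. It was at 0.48 to 1.00 in vehicle mice and at 1.41, 1.84, 1.53, 1.05 and 1.61 in exposed mice, and rose by 0.68 ± 0.12 (adjusted p = 0.00871 by limma with slide as a block). Isyna1, which makes inositol phosphate from glucose 6-phosphate, was at -0.92 to -0.59 in vehicle mice and at -0.38 to 0.13 in exposed mice, and rose by 0.76 ± 0.13 (adjusted p = 0.00700). Its call held in 17 of 18 other settings. Rgs11, a regulator of G protein signalling, was at -0.93 to -0.62 in vehicle and -0.17 to 0.27 in exposed mice, and rose by 0.71 ± 0.18 (adjusted p = 0.0418). The Rgs11 call held in only 7 of those 18 settings. Nadk, the kinase that makes NADP, was at 0.22 to 0.25 in vehicle mice and at 0.65, 0.69, 0.52, 0.41 and 0.67 in exposed mice, and rose by 0.36 ± 0.06 (adjusted p = 0.00700). Nadk also had the smallest p without a block (adjusted p = 0.0715).

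**Figure D5:**
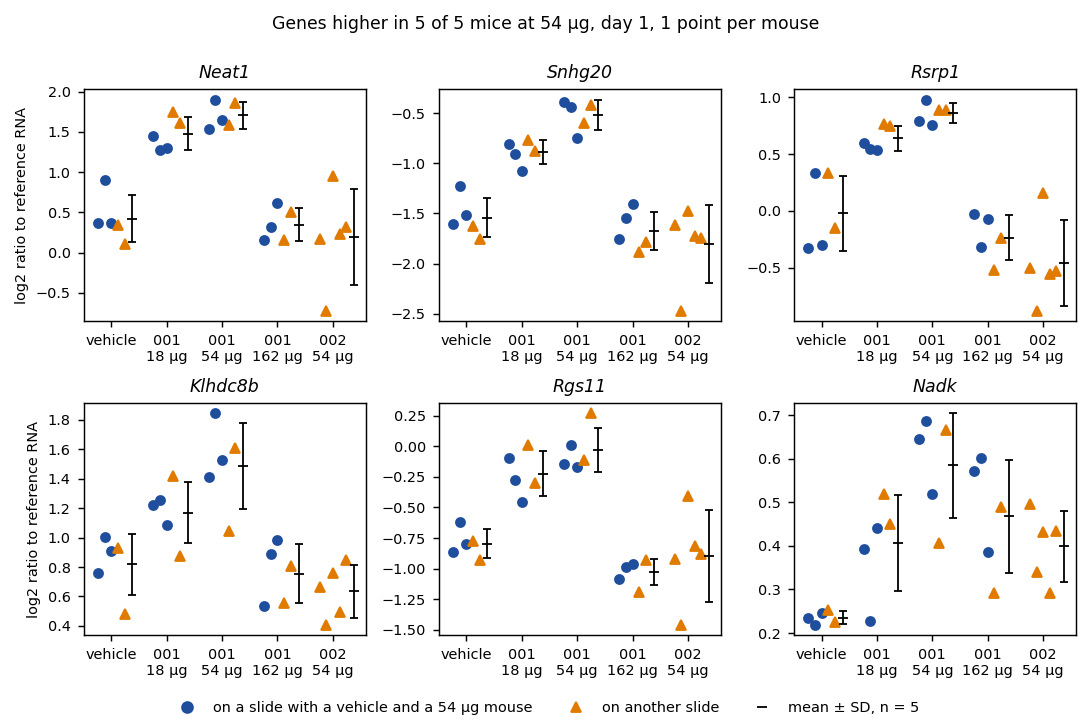
Log2 ratio to reference RNA of 6 genes with all 5 mice at 54 µg of NRCWE-001 above all vehicle mice, in the 5 mice of 5 day 1 groups, with the mean ± SD and the symbols of the plot of acute-phase genes. Neat1 is at 1.54 to 1.90 at 54 µg and 0.11 to 0.90 in vehicle mice, at 1.28 to 1.75 at 18 µg and at 0.15 to 0.61 at 162 µg.

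Further higher genes included Itga7, a laminin-binding integrin subunit, which rose by 0.77 ± 0.19 (adjusted p = 0.0375 by limma with slide as a block) from -1.42 to -0.91 in vehicle mice to -0.73 to -0.05 in exposed mice. Serpind1, which encodes the thrombin inhibitor heparin cofactor II, rose by 0.73 ± 0.17 (adjusted p = 0.0334). Htra2, a mitochondrial protease gene, rose by 0.36 ± 0.08 (adjusted p = 0.0180), and its exposed mice at -0.98 to -0.80 lay above the vehicle mice at -1.29 to -1.17. Echdc2 and 4933439C10Rik rose by 0.55 ± 0.11 and 0.49 ± 0.10 (adjusted p = 0.0164 and 0.0156). Of 18 other settings, the call held in 4 for Itga7, 9 for Serpind1, 10 for Htra2, 12 for Echdc2 and 11 for 4933439C10Rik.

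The 14 lower genes changed little. In 7 of them all 5 exposed mice were below all vehicle mice, as in 1.09% of all genes. Ppp1r14c, which encodes an inhibitor of protein phosphatase 1, fell by 0.65 ± 0.13 (adjusted p = 0.0164 by limma with slide as a block), from 2.79 to 3.75 in vehicle mice to 2.54 to 3.13 in exposed mice, and the groups overlapped. Aspn, which encodes the matrix protein asporin, fell by 0.51 ± 0.13 (adjusted p = 0.0454). Its exposed mice were at 0.09 to 0.17 and its vehicle mice at 0.18 to 0.72. The Aspn call held in 4 of 18 other settings and that of Ppp1r14c in 12. Rpl18, a ribosomal protein gene, fell by 0.35 ± 0.06 (adjusted p = 0.00871), with exposed mice at -1.27 to -1.17 and vehicle mice at -1.07 to -0.73. Its call held in 16 of 18 other settings.

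Syce1, Sertad4, Gon4l, Inhbb, Pou5f2, Ubn2 and Sgpp1 also fell, by 0.51 in Syce1 to 0.29 in Sgpp1. Inhbb encodes an activin and inhibin subunit, and its 2 probes differed, at -0.04 and -0.61 without the block. The 3 probes of Gon4l gave -0.58, -0.22 and -0.02. Olfr25, Sde2 and Scaper were among the lower genes of smallest p without a block, had differences of -0.21, -0.21 and -0.26 with it and were not called. Olfr25 was not well above background on any of the 10 arrays.

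The remaining lists had 0 genes called by limma with slide as a block, and 0 to 4 genes per list were higher at an unadjusted p below 0.05, against 8.43% of all genes. The median differences were 0.12 for 14 oxidative stress and metallothionein genes, 0.21 for 17 genes of a chemokine cluster that the study drew from other lung disease data, -0.01 for 12 matrix and fibrosis genes, 0.17 for 15 cell cycle genes, 0.09 for 12 heat shock chaperones, 0.20 for 14 immediate early genes, -0.09 for 12 circadian clock genes, 0.05 for 8 glucocorticoid and fasting targets and -0.01 for 10 p53 targets. The higher genes were 4 of 14 in the oxidative stress list, 3 of 17 in the chemokine cluster and 3 of 15 in the cell cycle list. They were 2 of 12 heat shock chaperones, 1 of 12 matrix and fibrosis genes and 0 in the others. The chemokine cluster had mean deviations of 0.67, 0.31, 0.72, -0.33 and -0.25 in exposed mice 1 to 5 and -0.13 to 0.18 in vehicle mice. Hmox1, which encodes haem oxygenase 1, was at -1.84 to -1.41 in vehicle mice and at -1.10, -1.22, -0.88, -1.64 and -1.65 in exposed mice (difference 0.42 ± 0.17, adjusted p = 0.260). Mt2, a metallothionein gene, was at -3.59 to -3.09 in vehicle mice and at -2.11, -2.98, -2.22, -3.52 and -3.48 in exposed mice (difference 0.71 ± 0.39, adjusted p = 0.444). Both were above the vehicle mice in exposed mice 1 to 3 only.

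The next dose up was compared with 54 µg directly. Between 162 and 54 µg, limma without a block called 25 genes (0.142%), 2 higher and 23 lower at 162 µg. The 2 higher genes were Orm3, an orosomucoid, by 0.66 ± 0.13 (adjusted p = 0.0106), and the ribosomal protein gene Rpl36al. Rsrp1 was lower at 162 µg by 1.10 ± 0.23 (adjusted p = 0.0192) and Snhg20 by 1.16 ± 0.26 (adjusted p = 0.0358), and Rgs11 and Igflr1 were lower too. The differences in Saa3 and Lcn2, 2.79 ± 1.16 and 1.00 ± 0.63, did not pass the test (adjusted p = 0.641 and 0.991). The slide block gave 290 (1.65%), 51 higher and 239 lower.

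Between 54 and 18 µg, limma called 0 genes (0%) without a block, with 931 (5.28%) at an unadjusted p below 0.05. Blocking by slide gave 36 (0.204%), 27 higher and 9 lower at 54 µg. Orm2, Saa2 and Orm1 were higher at 54 µg by 1.76 ± 0.39, 1.76 ± 0.39 and 1.48 ± 0.33 (adjusted p = 0.0440, 0.0463 and 0.0463). Mcm2, a subunit of the replicative helicase, was higher by 0.62 ± 0.14 (adjusted p = 0.0475). Ltc4s, which encodes leukotriene C4 synthase, was lower by 0.76 ± 0.18 (adjusted p = 0.0475). Saa3 at 18 µg ranged from -3.62 to -0.45, with a mean of -1.96 ± 1.16 (SD, n = 5), and its difference did not pass the test (adjusted p = 0.259).

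At the same dose and day, the charged NRCWE-002 was compared with NRCWE-001. All 5 mice given NRCWE-002 had high Saa3, at 1.10 to 4.56, where 3 of 5 had with NRCWE-001. The difference in Saa3 was 2.85 ± 1.16 without a block and 3.61 ± 1.14 with slide as a block, and neither passed the test (adjusted p = 0.607 and 0.161 by limma). Without a block 17 genes (0.0964%) were called, 1 higher and 16 lower with NRCWE-002. Rsrp1 was lower by 1.32 ± 0.23 (adjusted p = 0.00479), Snhg20 by 1.29 ± 0.26 (adjusted p = 0.0189) and Neat1 by 1.52 ± 0.34 (adjusted p = 0.0365). Tagln, which encodes the smooth muscle protein transgelin, was the 1 higher gene, by 0.75 ± 0.15 (adjusted p = 0.0189). Against vehicle, the difference in Tagln was -0.50 with NRCWE-001 and 0.25 with NRCWE-002. Neither passed the test (adjusted p = 0.494 and 0.820 by limma without a block). The slide block gave 32 (0.182%). Rsrp1 was among them (adjusted p = 0.0316), and Neat1 and Snhg20 were not (adjusted p = 0.0802 and 0.0802).

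On day 28, Saa3 was at -3.65 ± 0.15 (SD, n = 5) after 54 µg of NRCWE-001 and at -3.86 ± 0.14 (SD, n = 4) after vehicle, with no mouse high. The effect on day 28 minus that on day 1 was -4.72 ± 1.56 with slide as a block, which did not pass the test (adjusted p = 0.215 by limma). For this difference between days, limma called 0 genes (0%) without a block, with 818 (4.64%) at an unadjusted p below 0.05, and 6 (0.034%) with it. These were Nadk, Recql5, Rexo5, Zfp512b and Ap5z1, with a lower effect on day 28, and Ubn2, with a higher one. Neat1 on day 28 was at -1.14 to 1.19 after 54 µg and at 0.45 to 1.63 after vehicle, and the groups overlapped.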

How the data were processed

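Lung RNA of single mice was labelled with Cy5 and hybridised with Cy3-labelled reference RNA to Agilent arrays without dye swaps. The authors deposited log2 ratios of sample over reference for 41174 probes, made by LOWESS without background correction, and these were used as given. The scanner intensities, deposited as spot files of Feature Extraction, were used for detection, slide and alternatives. Probes well above background on at least 4 of 69 arrays were kept (36452), and 66.7% of all probes matched a RefSeq symbol. A gene was the median of its probes, and 11356 of 17628 genes had 1 probe. Group means over 14 groups and 69 arrays were fitted with limma 3.58.1 (R 4.3.3), without a block (55 residual degrees of freedom) and with 18 slides as a fixed block (38). Genes were called at a Benjamini-Hochberg adjusted p below 0.05 over all genes. Spread was tested with limma on absolute deviations from group means, scaled for group size. The number of arrays limits the precision, and each array was 1 mouse. The scripts were tested on simulated data.

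Genes were named as the 12 higher and 10 lower called genes of largest change with slide as a block, called members of each list, 13 genes of inflammation whether called or not, the 4 higher and 4 lower of smallest p without a block, genes called for spread, and up to 4 called genes per direction in each other contrast. Other genes named with values were chosen after those values were seen. The members and lists were chosen with earlier results of these data known, so list counts set beside shares of all genes are descriptions. Alternatives were other signal processing, probe filters and summaries, smaller sets of arrays, slide or scan day as a block, and leaving out each array of the comparison.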

Additional observations from a re-analysis of the deposited data

Results flagged for a closer look

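Single mice stood apart from the other 4 of their group in 7 of 82 groups of values tested (41 genes in both groups), where chance flags about 1 in 20 groups of values. The count is no test, since Trpc1, Slit1 and Oprd1 were named for their spread among exposed mice. Exposed mouse 4 accounted for 4 of the 7. In this mouse Trpc1 was at 1.88, with the other 4 at -0.12 to 0.07. Slit1 was at -3.10, with the other 4 at -0.34 to 0.08. Oprd1 was at 1.64, with the other 4 at 0.06 to 0.21. The scanner software had marked the spots of these 3 genes on this array as outliers. Syce1 in exposed mouse 4 was at -3.90, with the other 4 at -4.76 to -4.52. Oprd1 in vehicle mouse 4 was at -0.16, with the other 4 at -0.01 to 0.05. Sde2 in exposed mouse 1 was at -0.18, with the other 4 at -0.37 to -0.33. The transcript 4933439C10Rik in exposed mouse 3 was at -1.13, with the other 4 at -0.85 to -0.80.

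For 6 genes the effect of 54 µg differed between day 28 and day 1 by limma with slide as a block. The effect on day 28 minus that on day 1 was -0.50 ± 0.09 (SE; adjusted p = 0.0216) for Nadk, -0.49 ± 0.09 (SE; adjusted p = 0.0216) for the DNA helicase gene Recql5 and -0.72 ± 0.14 (SE; adjusted p = 0.0326) for Rexo5. It was -0.54 ± 0.11 (SE; adjusted p = 0.0326) for Zfp512b and -0.52 ± 0.10 (SE; adjusted p = 0.0326) for Ap5z1, and 0.53 ± 0.10 (SE; adjusted p = 0.0216) for Ubn2. Without the block limma called 0 genes for this difference, with 818 at an unadjusted p below 0.05.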

How the results depend on the processing

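Of 52 genes described from the slide-block fit, 31 were called, and 0 of the 31 kept the call under every alternative run. Of the 52, only S100a9, which was not called, turned its direction, to -0.15 with the signals processed by the scanner software, -0.031 with 20 and -0.0085 with 12 arrays, and it ran from -0.059 to 0.14 with 1 array left out. With slide as a block, the 123 calls became 39 with the signals processed by the scanner software, 31 from the 20 arrays of NRCWE-001 and vehicle of day 1, and 70 with the 12 arrays of the 3 shared slides, the last chosen after seeing the data. Leaving out 1 array gave 3 (without exposed mouse 5) to 246 (without exposed mouse 4). The other alternatives gave 120 to 157. Without a block, the 0 calls became 61 with 35, 84 with 20 and 123 with 10 arrays, 98 with slide as a random block and 83 with scan day as a fixed block. Leaving out 1 array gave 0 to 1 (Nadk, without exposed mouse 4). The 5 genes called for spread became 3 with normexp background correction (Saa3, Lcn2 and Pfkl) and 0 with 35 arrays. Squared deviations gave 1 other gene, Papolb. The 10 arrays of the comparison gave 5 genes (Ch25h, Ctsk, Lcn2, Ly6f and Noxo1), of which 1, Lcn2, was among the main 5. With 1 array left out the count ran from 0 (without exposed mouse 4) to 16 (without exposed mouse 1). The spread difference of Oprd1 turned to -0.0087 with normexp, where its marked spot is left out, and ran from -0.018 (without exposed mouse 4) to 0.60 when 1 array was left out. With slide as a block, the charged particle against the unmodified one gave 32 genes for 17, 162 against 54 µg gave 290 for 25, 54 against 18 µg gave 36 for 0, and day 28 against day 1 gave 6 for 0. The 21 genes past 2-fold on all 3 shared slides became 57 with the processed signals, an alternative added after seeing the data. Where not stated, the cause was not tested. No paired analysis was possible by replicate number, because the numbers follow deposition order. Mice of the 3 shared slides were paired by slide, in the 12-array fit and the within-slide differences. Dim genes are limited by signal over background: Orm2 and Cxcl5 were below detection on all vehicle arrays.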

Other observations

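Against the vehicle mean, exposed mice 1 to 5 had 64, 39, 67, 31 and 37 genes more than 2-fold higher and 24, 5, 6, 44 and 10 genes more than 2-fold lower. Vehicle mice 1 to 5, each set against the mean of the other 4, had 3, 1, 3, 10 and 94 higher and 6, 22, 9, 9 and 6 lower. In vehicle mouse 5 the genes furthest above the mean included Sln, Tnni3, Mb and Csrp3, which are expressed in cardiac muscle, and Bpifa1 and Reg3g, which airway epithelium secretes. In exposed mouse 5 they were Bpifa1, Sln, Reg3g and Muc5b. In exposed mouse 4 they included Ndc80, Oip5 and Spc25, genes of cell division, and Trpc1 and Oprd1, whose spots were marked as outliers. The cell cycle list as a whole had a mean deviation of -0.05 from the vehicle mean in this mouse. The 12 furthest held none of the acute-phase list.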
